A study of Rattus norvegicus with 16 samples.

Results

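The genes described here are the amino acid and neurotransmitter transporters of the rat hippocampus, taken from the solute carrier (Slc) families 1, 3, 6, 7, 17, 18, 32, 36, 38 and 43. Members were all non-control probes of the array whose gene name is an Slc symbol of those families, with 1 value for each gene from its probe of highest mean signal. The rule found 72 genes on 87 probes, out of 30367 probes and 26583 named genes. Of these, 61 genes passed the filter on dim probes and were tested, and 11 did not: Slc17a2, Slc17a4, Slc36a2, Slc36a3, Slc38a4, Slc38a11, Slc6a4, Slc6a14, Slc7a2, Slc7a13 and Slc7a15. There were 38 members above background on all 16 arrays and 5 on none. No probe carried the name Slc32a1, the vesicular GABA transporter. Slc1a2, the main astrocytic glutamate transporter (GLT-1), and Slc43a1, a transporter of large neutral amino acids (LAT3), marked the list.

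Transmitter amino acids are taken back into cells by sodium-coupled carriers. Slc1 proteins on astrocytes and neurons clear glutamate from the extracellular space, and Slc6 proteins clear GABA, glycine, proline and the monoamines. Inside nerve terminals, Slc17 and Slc18 proteins load glutamate, monoamines and acetylcholine into synaptic vesicles. Glutamine, the precursor of transmitter glutamate, moves from astrocytes to neurons through Slc38 carriers. Slc7 light chains paired with an Slc3 heavy chain exchange amino acids across cell membranes and the blood-brain barrier. In the injured hippocampus this system is best known for the handling of glutamate, which is toxic to neurons in excess.

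Whole hippocampus of adult male Sprague-Dawley rats was measured 24 hours after injury, or the equivalent time, on 16 one-colour oligonucleotide arrays with 1 rat each. Naive rats (n = 3) had neither injury nor treatment, Sham rats (n = 2) were anesthetized and prepared but not injured, and TBI rats (n = 3) received a parasagittal fluid percussion injury. Every drug group was injured too: TBI+PMI-006 (n = 3, 250 mg/kg by gavage), TBI+JM6 (n = 3, 400 mg/kg by gavage) and TBI+E2 (n = 2, 17β-estradiol at 33 ug/kg). Each compound was given at 1 dose and the doses differ, so that the comparisons among drugs are not at a matched dose. The route of estradiol is given as subcutaneous in the labels and as intraperitoneal in the methods. The tissue was whole hippocampus, so fewer cells of a type and less RNA per cell cannot be told apart.

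Values are log2 intensities relative to each array's 75th percentile, and a gene was called changed at an adjusted p under 0.05 in limma. Naive, Sham and TBI arrays lay on slides 1 and 2 and were scanned in session 1, and all drug arrays lay on slides 3 and 4 and were scanned in session 2. Each array had 16274 to 18239 probes well above background in session 1 and 20256 to 24979 in session 2, and the corresponding member counts were 41 to 51 and 50 to 67. Drug treatment and scan session therefore cannot be told apart in any comparison of a drug group with TBI. All 7 neuron markers were well above background on every array, and all 10 astrocyte markers were on every array except TBI 3, where Hes5 was not. The summed choroid plexus markers were 76.8 on Naive array 2, 122 on Sham array 1 and 152 on TBI+PMI-006 array 1, against 0.199 to 7.64 on the other arrays. These 3 arrays were also left out together, a choice made after seeing the data.

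The first question was how the injury at 24 hours changed transporter expression. In TBI vs. Sham, 3 transporters rose and 3 fell among the 61 tested, which was 9.84% of them, against 9.38% of all tested probes (2.92% higher and 6.46% lower). The share of members called was thus near the background. Slc1a5, Slc43a3 and Slc18a1 were higher in TBI. Slc6a7, Slc17a7 and Slc38a3 were lower.

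Slc1a5 (ASCT2), a sodium-dependent exchanger of glutamine and other neutral amino acids, is read by a probe at chr1:77124500-77124559 (rn4, plus strand). Its log2 scaled intensity was -3.54, -2.75 and -2.89 in TBI, -4.89 and -4.22 in Sham, and -4.24, -5.12 and -5.72 in Naive. All 3 TBI arrays were above all 5 uninjured arrays. The rise over Sham was 1.5 on the log2 scale (SE 0.37, adjusted p = 0.0284), or 2.82-fold. Against Naive the rise was 1.97 (SE 0.33, adjusted p = 0.00936), or 3.91-fold. Within slide 2, which held 1 Naive and all 3 TBI arrays, the difference from Naive was 2.66.

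Slc43a3, which despite its family carries purine nucleobases, has its probe at chr3:68172929-68172988 (rn4, plus strand). Its values were -3.39, -2.41 and -3.24 in TBI, -4.31 and -4.19 in Sham, and -4.25, -4.28 and -4.30 in Naive. The uninjured arrays lay close together and every TBI array was above them. The rise was 1.24 over Sham (SE 0.31, adjusted p = 0.0278) and 1.26 over Naive (SE 0.27, adjusted p = 0.0233). With slide as a fixed block the rise over Naive was 1.29 but the adjusted p was 0.232. Summed leukocyte markers were 0.127 to 0.173 in Naive, 0.316 to 0.461 in Sham and 0.671 to 3.27 in TBI. The sum was thus higher in Sham than in Naive too, where neither Slc1a5 nor Slc43a3 was called. Among the single markers, S100a8 and S100a9 were called higher in TBI vs. Sham, and Ptprc, S100a8, S100a9 and Cd3e in TBI vs. Naive. Cd3e was also called higher in Sham vs. Naive. The part of leukocytes in the rises of Slc1a5 and Slc43a3 was not tested. Summed microglia markers were 8.73 to 10 in Naive, 9.18 to 12.7 in Sham and 10.3 to 11.9 in TBI.

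Slc6a7 (PROT), the proline transporter of glutamatergic nerve terminals, showed the tightest change. The probe lies at chr18:56959127-56959186 (rn4, minus strand). Its values were -3.29, -3.31 and -3.35 in TBI, -2.09 and -1.76 in Sham, and -2.03, -2.11 and -2.09 in Naive. The 3 TBI arrays were below all 5 uninjured arrays. Slc6a7 fell by 1.39 on the log2 scale against Sham (SE 0.21, adjusted p = 0.00581), or 2.62-fold. Against Naive it fell by 1.24 (SE 0.19, adjusted p = 0.00626), and within slide 2 the difference was -1.23.

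Slc17a7 (VGLUT1), which loads glutamate into vesicles of excitatory neurons, has its probe at chr1:95649107-95649166 (rn4, plus strand). Its values were -0.89, -2.41 and -1.73 in TBI, -0.33 and -0.15 in Sham, and -1.42, -1.94 and -1.64 in Naive. TBI lay below Sham but spread around the Naive arrays. Slc17a7 fell by 1.43 in TBI vs. Sham (SE 0.34, adjusted p = 0.0234) and was 1.43 higher in Sham vs. Naive (SE 0.34, adjusted p = 0.0235). Summed neuron markers moved the same way, at 22.9 to 24.6 in Naive, 32.1 to 34.0 in Sham and 17 to 26.4 in TBI, with all 7 markers above background. The single markers did not all move with the sum, and Tubb3 read 2.74, 2.89 and 2.63 in Naive and 2.71 and 2.80 in Sham. Only Snap25 was called in TBI vs. Sham, as lower, and only Syt1 in Sham vs. Naive, as higher. Neither was called under quantile normalization. The part of neurons in the Slc17a7 and Slc6a7 differences was not tested.

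Slc38a3 (SNAT3), the glutamine carrier of astrocytes, has its probe at chr8:112899099-112899158 (rn4, minus strand). Its values were -1.49, -2.45 and -2.42 in TBI, -0.88 and -1.06 in Sham, and -1.44, -1.37 and -1.76 in Naive. TBI did not overlap Sham but overlapped Naive. The fall was 1.15 against Sham (adjusted p = 0.0366), and against Naive the difference was -0.60 (adjusted p = 0.239). Summed astrocyte markers were 49.4 to 60.4 in TBI, 68.7 to 83.8 in Sham and 66.3 to 77.8 in Naive, and their part in the Slc38a3 difference was not tested. The single markers did not all move with the sum. In TBI vs. Naive Gfap was called higher and Aldh1l1 and Gjb6 lower, and in TBI vs. Sham only Hes5 was called, as lower. Gfap read 1.64, 2.20 and 1.87 in TBI, 1.97 and 0.80 in Sham, and -0.67, -0.57 and -0.66 in Naive.

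Slc18a1 (VMAT1), a vesicular monoamine transporter mainly of neuroendocrine cells, has its probe at chr16:22389768-22389827 (rn4, plus strand). Its values were -3.32, -3.19 and -3.30 in TBI, -4.37 and -5.20 in Sham, and -2.57, -3.19 and -3.17 in Naive. The Sham arrays were the low ones, and TBI met Naive. The difference was 1.52 in TBI vs. Sham (adjusted p = 0.0266) and -1.81 in Sham vs. Naive (SE 0.37, adjusted p = 0.0128).

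Each of these comparisons rests on few arrays. Leaving out Sham 1, Sham 2, TBI 2 or TBI 3 reduced the 6 calls of TBI vs. Sham to 1, that of Slc6a7, and leaving out TBI 1 raised them to 10. With normexp background correction the adjusted p of the 6 genes was 0.286 to 0.744, and with the TBI and Sham arrays fitted alone it was 0.122 to 0.215. TBI and Sham shared no slide, and with slide as a fixed block it was 0.14 to 0.679.

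**Figure D1:**
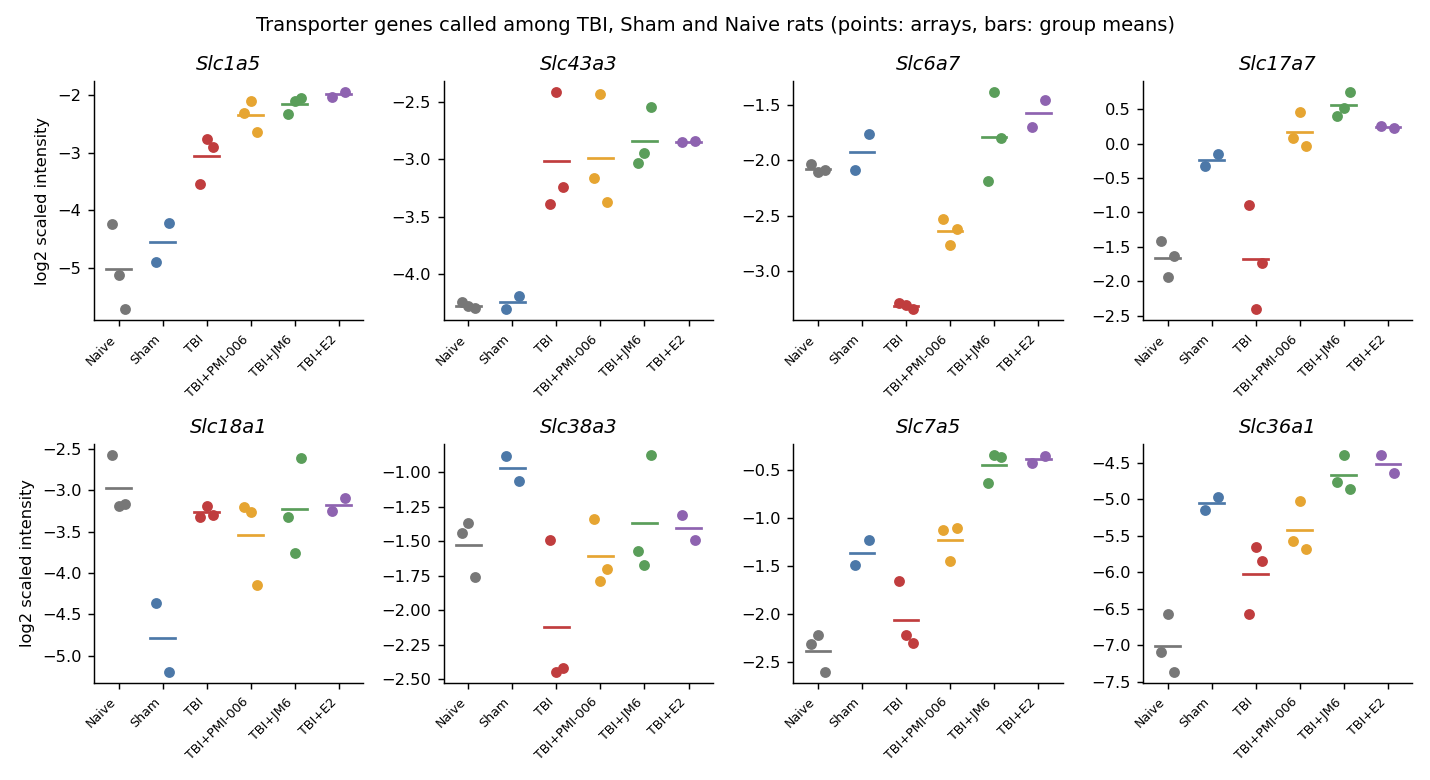
Log2 scaled intensity of the transporter genes called among TBI, Sham and Naive, by group. Points are arrays and bars are group means. Slc6a7 on the 3 TBI arrays lies at -3.29 to -3.35, below the 5 uninjured arrays, and Slc43a3 on the 5 uninjured arrays lies at -4.31 to -4.19.

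In TBI vs. Naive, 2 transporters rose and 1 fell (4.92% of members, background 4.71%, of which 2.98% higher and 1.73% lower). These were Slc1a5, Slc43a3 and Slc6a7, whose values are given above. Both comparisons use the same TBI arrays, so the calls they have in common are not independent. Leaving out TBI 1 raised the count to 8. Slc43a3 lost its call without Naive 1, Naive 2, Naive 3, TBI 2 or TBI 3 (adjusted p 0.055 to 0.0747), whereas Slc1a5 and Slc6a7 kept theirs without any of these arrays. With normexp the adjusted p of the 3 genes was 0.208 to 0.652, and with the TBI and Naive arrays fitted alone 0.0628 to 0.14.

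Slc3a2, the heavy chain (CD98) shared by many Slc7 exchangers, read 2.58, 2.67 and 2.77 in TBI, 1.99 and 2.38 in Sham, and 2.10, 2.33 and 1.88 in Naive. The TBI arrays were above all uninjured arrays, but the test was not passed. Its differences were 0.49 from Sham (adjusted p = 0.185) and 0.57 from Naive (adjusted p = 0.12).

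Slc38a2 (SNAT2), the amino acid carrier induced on amino acid shortage, differed by 0.55 from Sham (adjusted p = 0.228) and 0.48 from Naive (adjusted p = 0.294). Slc6a9 (GlyT1), the glial glycine carrier, differed by -0.92 from Sham (adjusted p = 0.1) by its brighter probe. The other Slc6a9 probe was called lower, at -1.58.

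Handling without injury was addressed by Sham vs. Naive. There 3 transporters rose and 1 fell (6.56% of members, background 8.07%, of which 6.55% higher and 1.51% lower). Beside Slc17a7 and Slc18a1, these were Slc7a5 and Slc36a1.

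Slc7a5 (LAT1), the light chain that carries large neutral amino acids across the blood-brain barrier, has its probe at chr19:52121389-52121448 (rn4, minus strand). Its values were -1.49 and -1.23 in Sham and -2.31, -2.22 and -2.60 in Naive, with no overlap. The rise was 1.01 (SE 0.22, adjusted p = 0.0166). TBI read -1.65, -2.22 and -2.30 and differed from Sham by -0.69 (adjusted p = 0.0656).

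Slc36a1 (PAT1), a proton-coupled carrier of small amino acids in lysosomes, has its probe at chr10:40638913-40638972 (rn4, plus strand). It was well above background on both Sham arrays, at -5.15 and -4.97, and on no Naive array, where it read -7.09, -6.57 and -7.37. The rise in Sham was at least 1.98-fold in the main fit (adjusted p = 0.00453). With normexp the log2 difference was 0.36, which is smaller than that bound. Such bounds set the mean of the bright group against the dimmest level still well above background on each array of the dim group, or the probe's own reading where that was higher. Without Sham 2 the 4 calls fell to 1, that of Slc36a1, and without Naive 3 they fell to 2. Under quantile normalization Slc17a7 had an adjusted p of 0.0519 in this comparison, and with normexp all 4 genes lost their call (adjusted p 0.113 to 1.0).

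By role, the 7 Slc1 uptake carriers had 1 member higher and none lower in TBI vs. Sham, at a median of 0.22 on the log2 scale, and 14 tested Slc6 carriers of GABA, glycine and other amino acids had 1 lower, with a median of -0.48. Of 7 vesicular transporters, 1 was higher and 1 lower. The 10 tested heteromeric exchangers and heavy chains had no call and a median of 0.28. Of 11 tested Slc36 and Slc38 carriers, 1 was lower (median -0.15), and of 3 Slc43 carriers, 1 was higher (median 0.38). The median of all 61 was -0.02, beside -0.03 over all tested probes.

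The second question was how the drug groups differed from TBI. All 3 comparisons share the TBI arrays and differ by scan session. On the 75th percentile scale 39 transporters were higher in TBI+JM6, which was 63.9% of members against 69.9% of all probes higher and 70.1% in either direction. In TBI+PMI-006 30 were higher, or 49.2% against a background of 56.7%, and in TBI+E2 42 were, or 68.9% against 70.2% higher and 70.3% in all. None was lower, where the background was 0.175%, 0.0482% and 0.092%. Of the calls, 8 in TBI+JM6, 7 in TBI+PMI-006 and 10 in TBI+E2 were of members well above background on no TBI array. The shares higher were not above the background. The whole array moved on this scale: the median log2 fold change over all tested probes was 0.99, 0.79 and 1.08, and that over the members was 1.03, 0.72 and 1.22. Relative to the shift of all probes, 33 members lay above and 28 below it in TBI+JM6, 30 and 31 in TBI+PMI-006, and 32 and 29 in TBI+E2.

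**Figure D2:**
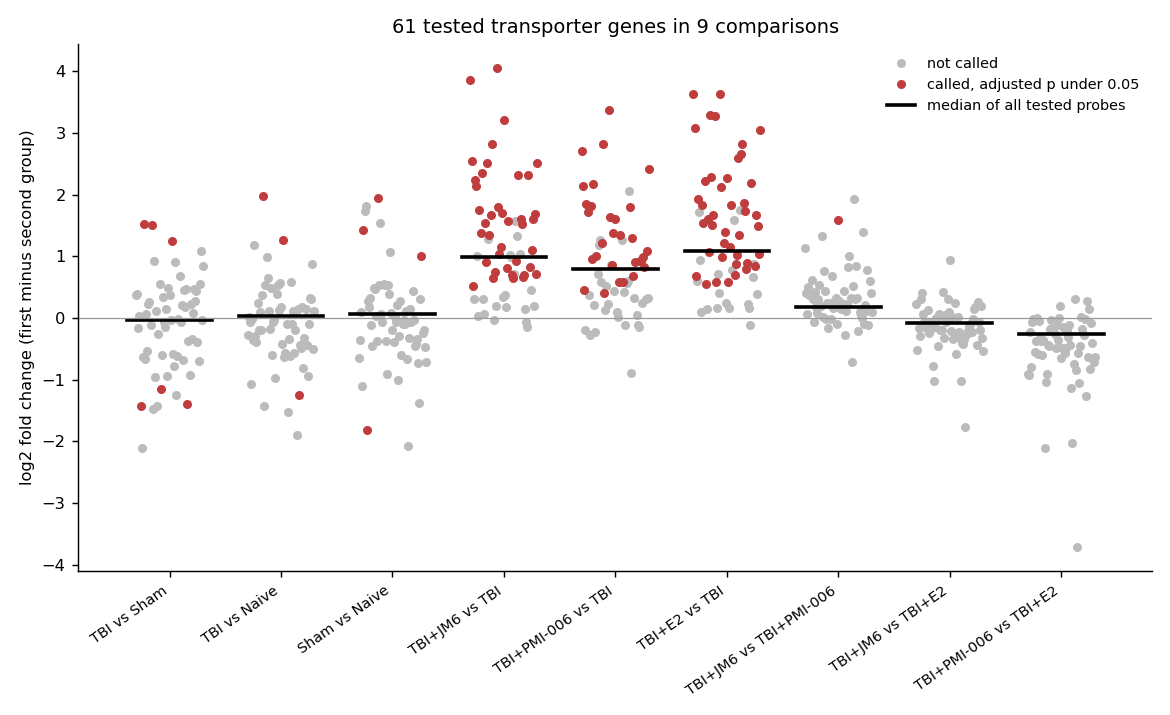
Log2 fold change of the 61 tested transporter genes in each of 9 comparisons, first minus second group. Points are genes, with called genes marked. The median over the members is -0.02, -0.09 and -0.07 among TBI, Sham and Naive, 1.03, 0.72 and 1.22 where TBI+JM6, TBI+PMI-006 and TBI+E2 are each set against TBI, and -0.40 to 0.28 among the drug groups.

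Quantile normalization, which makes the intensity distribution of all arrays the same, took the all-probe shift to 0, -0.01 and 0. Under it 8 transporters were higher and 7 lower in TBI+JM6 (background 13.9% and 13.3%, together 27.2%). The counts were 3 and 7 in TBI+PMI-006 (background 9.96% and 9.2%, together 19.2%), and 7 and 6 in TBI+E2 (background 10.4% and 9.98%, together 20.4%). Called higher under both scalings were Slc1a1, Slc17a7, Slc38a6, Slc38a7, Slc7a5, Slc43a1, Slc17a1 and Slc7a12 in TBI+JM6. In TBI+PMI-006 these were Slc1a1, Slc17a7 and Slc38a6, and in TBI+E2 they were Slc1a1, Slc17a7, Slc38a6, Slc38a7, Slc7a5, Slc6a7 and Slc7a9. Of the genes named, Slc38a6, Slc43a1, Slc17a1, Slc7a12 and Slc7a9 were tested only because drug groups, where they are high, read them above background. Slc18a1, Slc43a3, Slc6a18 and Slc7a1 were lower in all 3 drug groups under quantile normalization. In TBI+E2, Slc6a18 and Slc38a8 were called higher in the main fit and lower under quantile normalization. For Slc6a18 the values in TBI+E2 were 1.02 (adjusted p = 0.0396) and -1.09 (adjusted p = 0.0365) by its brighter probe. Its other probe was called higher in TBI+E2 under both scalings, at 4.22 and 2.61, so its direction depended on the probe too.

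**Figure D3:**
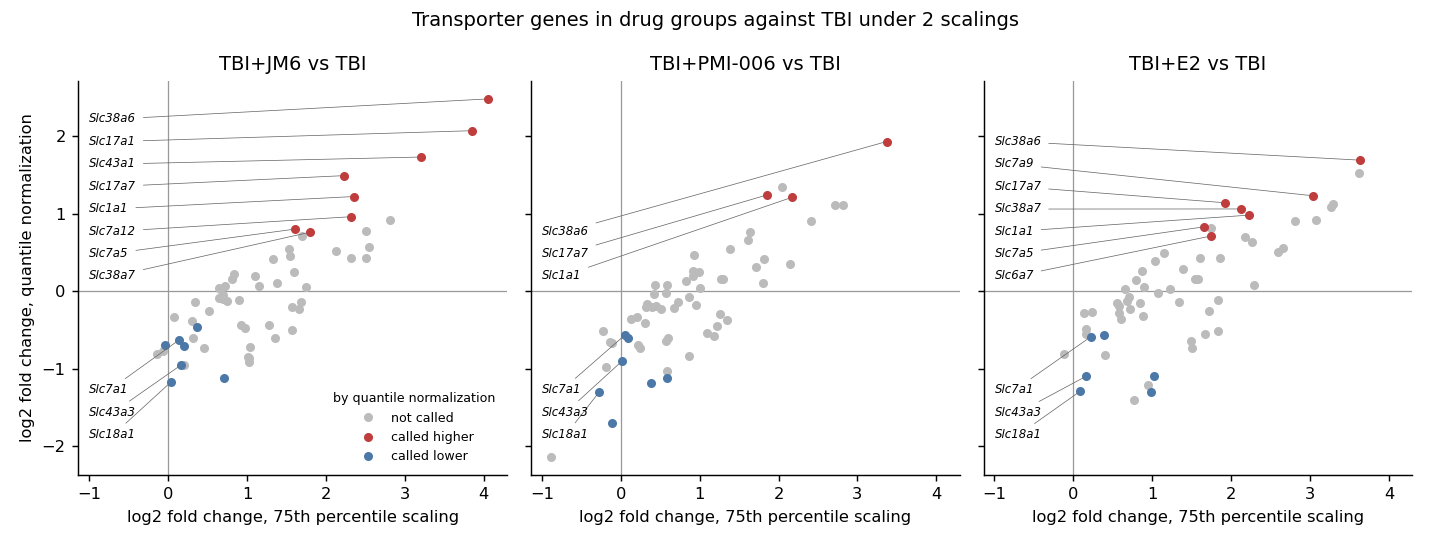
Log2 fold change of transporter genes in each drug group against TBI, with 75th percentile scaling on the horizontal axis and quantile normalization on the vertical axis. Points are genes, marked by their call under quantile normalization. Nearly all genes lie right of 0 while they spread on both sides of 0 on the vertical axis.

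Promoters are shown for 4 of the transporters called higher in TBI+JM6 under both scalings, as examples of upstream sequence. The 4 were listed by name, with no rule of choice. RefSeq's table (build GRCr8) held promoters of 53 of the 72 members. Slc1a1, Slc1a5 and Slc43a3 were not among them. The 250 bases before the start are given 5′ to 3′ on the gene's strand, at chr3:90327072-90327321 (plus) for Slc43a1, chr19:66872413-66872662 (minus) for Slc7a5, chr19:9215128-9215377 (plus) for Slc38a7 and chr1:104785955-104786204 (plus) for Slc17a7. Capitals mark the E-box CACGTG and the GC box GGGCGG on either strand.
Slc43a1: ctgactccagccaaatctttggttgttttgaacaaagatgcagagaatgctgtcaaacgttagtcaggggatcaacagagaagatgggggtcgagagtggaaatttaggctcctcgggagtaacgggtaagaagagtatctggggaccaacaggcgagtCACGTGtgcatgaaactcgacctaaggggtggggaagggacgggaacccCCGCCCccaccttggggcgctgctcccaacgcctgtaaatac
Slc7a5: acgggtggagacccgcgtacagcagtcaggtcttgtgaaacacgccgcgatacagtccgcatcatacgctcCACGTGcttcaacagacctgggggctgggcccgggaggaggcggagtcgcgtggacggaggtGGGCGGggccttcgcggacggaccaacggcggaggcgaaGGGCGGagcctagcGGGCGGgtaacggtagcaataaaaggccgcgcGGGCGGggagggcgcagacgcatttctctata
Slc38a7: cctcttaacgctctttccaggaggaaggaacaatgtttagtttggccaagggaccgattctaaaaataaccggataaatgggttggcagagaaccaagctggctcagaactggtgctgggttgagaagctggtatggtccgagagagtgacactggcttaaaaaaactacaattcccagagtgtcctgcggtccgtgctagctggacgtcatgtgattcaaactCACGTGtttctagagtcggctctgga
Slc17a7: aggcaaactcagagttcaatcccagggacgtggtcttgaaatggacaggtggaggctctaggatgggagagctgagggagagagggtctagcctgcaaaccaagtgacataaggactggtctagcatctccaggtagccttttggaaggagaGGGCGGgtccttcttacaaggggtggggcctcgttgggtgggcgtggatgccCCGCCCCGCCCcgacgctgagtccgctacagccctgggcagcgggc
The E-box, which reads alike on both strands, began 91 bases before the start in Slc43a1, 179 in Slc7a5 and 26 in Slc38a7. It was in 5.59% of 33469 promoters of this length and in 8 of the 53 members (15.1%). Slc38a6 and Slc17a1, also called higher in TBI+JM6 under both scalings, had promoters without an E-box. The 4 promoters shown thus do not stand for all genes called under both scalings. The GC box was in 30.5% of all promoters and in 22 of the 53 (41.5%), with 4 copies in Slc7a5 and 3 in Slc17a7, of which a pair shares 1 base. The amino acid response element, searched as TGATGNAA on both strands, was in 3.4% of all promoters and in 3 members (5.66%), Slc1a4, Slc38a1 and Slc7a1. An AP-1 motif, TGANTCA on both strands, was in 6.34% of all promoters and in 8 members (15.1%), and began 37 bases before the start in Slc38a7. The NF-kB motif was in 6.33% and in 7 members (13.2%), beginning 50 bases before the start in Slc43a1, and the STAT motif TTCNNNGAA was in 7.67% and in 1 member (1.89%). The share of all promoters counts each promoter, whereas a member counts once if any of its promoters matches. The shares of members and of all promoters are therefore unlike measures. A match describes these letters only.

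Normexp background correction ended many of these calls. For Slc38a6 its adjusted p was 0.126 in TBI+JM6, 0.651 in TBI+E2 and 1.0 in TBI+PMI-006, for Slc43a1 0.167 and 0.901, and for Slc1a1 0.135 in TBI+E2 and 0.0975 in TBI+PMI-006. Removal of the GC trend gave 0.0529 for Slc38a7 in TBI+JM6 and 0.136 for Slc17a7 in TBI+E2.

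Slc1a1 (EAAC1), the neuronal glutamate and cysteine carrier, has its probe at chr1:232549520-232549579 (rn4). Its values were -3.78, -4.13 and -4.71 in TBI, -1.91, -2.20 and -2.0 in TBI+PMI-006, -1.96, -2.17 and -1.43 in TBI+JM6, and -2.23 and -1.75 in TBI+E2. Naive read -3.66, -4.41 and -3.95 and Sham -3.44 and -3.92, so that all 8 arrays of session 2 were above all 8 of session 1. The log2 fold change was 2.17 in TBI+PMI-006 (adjusted p = 8.03e-05), 2.35 in TBI+JM6 (adjusted p = 2.52e-05) and 2.22 in TBI+E2 (adjusted p = 9.64e-05). Under quantile normalization these were 1.21, 1.22 and 0.98.

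Slc17a7, whose GC boxes are shown above, read 0.08, 0.46 and -0.03 in TBI+PMI-006, 0.40, 0.52 and 0.75 in TBI+JM6, and 0.25 and 0.23 in TBI+E2. These 8 arrays were above all others on this scale. Under quantile normalization they read 10.35 to 10.80 and overlapped Sham at 10.55 and 10.61. The difference from TBI was 1.85, 2.23 and 1.92 in that order, and 1.24, 1.49 and 1.14 under quantile normalization. Summed neuron markers were 27.7 to 33.2, 30.3 to 42.7 and 30.1 to 32.2 in these groups. Their part in the difference was not tested.

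Slc38a6, an Slc38 family member of neurons, has its probe at chr6:95778364-95778423 (rn4) and was well above background on the 8 drug arrays alone. It read -7.94, -7.33 and -8.00 in TBI and -4.48 to -3.27 in the drug groups. The rise was at least 4.79-fold in TBI+JM6, at least 3.58-fold in TBI+E2 and at least 2.98-fold in TBI+PMI-006 on the 75th percentile scale. With normexp the log2 differences were 1.40, 0.66 and 0.06, which did not pass and are smaller than those bounds. The probe was tested only because the drug groups read it above background. Its second probe was too dim to be tested.

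Slc38a7 (SNAT7), which exports glutamine from lysosomes, has its probe at chr19:9680987-9681046 (rn4). It read -3.22, -3.26 and -4.18 in TBI, -1.93, -1.71 and -2.11 in TBI+PMI-006, -1.74, -1.58 and -1.94 in TBI+JM6, and -1.69 and -1.17 in TBI+E2. No drug array overlapped TBI. The rise was 1.80 in TBI+JM6 (SE 0.28, adjusted p = 0.000147) and 2.12 in TBI+E2 (SE 0.31, adjusted p = 0.000119). Under quantile normalization it was 0.76 and 1.06.

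Slc7a5 read -1.12, -1.45 and -1.10 in TBI+PMI-006, -0.63, -0.34 and -0.37 in TBI+JM6, and -0.43 and -0.35 in TBI+E2. All drug arrays were above all TBI arrays on this scale. The rise was 0.83 in TBI+PMI-006 (adjusted p = 0.00343), 1.61 in TBI+JM6 (adjusted p = 2.74e-05) and 1.66 in TBI+E2 (adjusted p = 5.63e-05). Under quantile normalization the TBI+PMI-006 value was 0.13 (adjusted p = 0.665), whereas the others were 0.80 (adjusted p = 0.0104) and 0.83 (adjusted p = 0.0192). With each array's trend on probe GC content removed, all 3 calls were lost (adjusted p = 0.0514 in TBI+JM6 and 0.114 in TBI+E2), and the TBI+PMI-006 value turned to -0.03.

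Slc6a7, lowest in TBI, read -2.53, -2.77 and -2.62 in TBI+PMI-006, -2.19, -1.38 and -1.80 in TBI+JM6, and -1.70 and -1.45 in TBI+E2. On this scale all drug arrays were above TBI, and both TBI+E2 arrays were above the uninjured values of -2.11 to -1.76. Under quantile normalization (log2 intensity not divided by the percentile) TBI+PMI-006 read 7.58, 7.26 and 7.75, below or within the 7.67 to 7.83 of TBI. TBI+JM6 and TBI+E2 then read 7.99 to 8.76, above TBI and below the 8.83 to 9.11 of the uninjured arrays. The difference from TBI was 1.53 in TBI+JM6 (adjusted p = 2.95e-05) and 1.74 in TBI+E2 (adjusted p = 3.3e-05). Under quantile normalization these were 0.54 (adjusted p = 0.0549) and 0.71 (adjusted p = 0.0369).

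Slc7a9, the cystine exchanger of kidney and gut, was well above background on 1 of 3 TBI arrays and rose by 3.04 in TBI+E2, 2.51 in TBI+JM6 and 2.41 in TBI+PMI-006. The probe was tested only because the drug groups, where it is high, read it above background. Under quantile normalization the values in the same order were 1.23 (adjusted p = 0.0284), 0.78 (adjusted p = 0.0816) and 0.90 (adjusted p = 0.0603). Slc6a3, the dopamine transporter, was well above background on 1 of 3 TBI arrays and on no Naive or Sham array, and was tested only because the drug groups read it above background. It rose by 2.66, 2.32 and 1.80, against 0.55, 0.43 and 0.10 with quantile normalization, none of which passed.

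Slc17a8 (VGLUT3) rose by 1.72 (adjusted p = 0.0497) in TBI+PMI-006 and 2.13 (adjusted p = 0.0154) in TBI+JM6. TBI 2 alone was at -8.26, against -5.78 and -5.67 on the other TBI arrays, and without it the values were 0.87 (adjusted p = 0.213) and 1.29 (adjusted p = 0.0663). Slc18a2 (VMAT2) rose by 1.82 in TBI+PMI-006, and by 0.41 (adjusted p = 0.271) with quantile normalization. Slc6a5 (GlyT2), the neuronal glycine carrier, rose by 2.81 in TBI+E2 (SE 0.93, adjusted p = 0.0172), and without TBI 1, TBI 3 or TBI+E2 2 the adjusted p was 0.0509 to 0.118.

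Slc17a1, a phosphate and organic anion carrier of kidney, and Slc7a12, an exchanger light chain, were not well above background on any TBI array. In the main fit the rise in TBI+JM6 was at least 4.07-fold for Slc17a1 and at least 1.10-fold for Slc7a12. Both probes were tested only because drug groups, where they are high, read them above background, so their p-values are given as a description. That was TBI+JM6 for Slc7a12, and TBI+JM6 and TBI+E2 for Slc17a1. Under quantile normalization both were called (adjusted p = 0.00785 and 0.0106). With normexp neither was, at 1.43 (adjusted p = 0.0968) and 0.97 (adjusted p = 0.296), and the authors' matrix gave 0.19 (adjusted p = 0.316) for Slc7a12.

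The levels of Slc1a5 and Slc43a3 in the drug groups depended on the scaling. Slc1a5 read -2.30, -2.10 and -2.63 in TBI+PMI-006, -2.32, -2.09 and -2.05 in TBI+JM6, and -2.03 and -1.94 in TBI+E2, all above the TBI arrays. Slc43a3 read -3.16, -2.43 and -3.37 in TBI+PMI-006, -3.03, -2.94 and -2.54 in TBI+JM6, and -2.85 and -2.84 in TBI+E2, within the TBI range of -3.39 to -2.41. On the 75th percentile scale every injured array exceeded every uninjured array for both genes. Under quantile normalization Slc1a5 read 7.74 to 8.02 on the drug arrays, within the 7.55 to 8.27 of TBI and above the 5.83 to 7.16 of the uninjured arrays. Slc43a3 then read 6.85 to 7.64 on the drug arrays, which overlapped the 6.84 to 7.16 of the uninjured arrays and lay below the 7.68 to 8.50 of TBI. Summed leukocyte markers lay at 2.64 to 3.56 with E2, 2.4 to 2.8 with JM6 and 1.77 to 2.75 with PMI-006.

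Slc1a2 stood at a like level in all groups scanned in session 1. Its values were -0.48, -0.29 and -0.17 in Naive, -0.16 and -0.70 in Sham, and -0.27, -0.19 and -0.17 in TBI, with overlap among the 3 groups. The probe lies at chr3:87988366-87988425 (rn4, plus strand). Drug arrays read -0.07, 0.18 and -0.10 in TBI+PMI-006, -0.07, 0.16 and 0.17 in TBI+JM6, and 0.53 and 0.14 in TBI+E2, all above those of session 1 on this scale. Under quantile normalization they read 10.18 to 10.81 and overlapped the 10.08 to 10.82 of session 1. In TBI+E2 vs. TBI the difference was 0.55 (adjusted p = 0.0266). It turned to -0.15 (adjusted p = 0.648) with quantile normalization and to -0.67 (adjusted p = 0.0268) with the GC trend removed, so its direction is set by the scaling. Without TBI+E2 1 the difference was 0.35 (adjusted p = 0.225). Neither of its probes was called in TBI vs. Sham.

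Slc43a1 was well above background on 5 arrays alone, the 3 of TBI+JM6 and the 2 of TBI+E2. Its probe lies at chr3:68083249-68083308 (rn4, plus strand), on the same chromosome as that of Slc43a3. It read -8.16, -8.49 and -8.17 in Naive, -8.44 and -8.51 in Sham, and -8.23, -7.93 and -8.13 in TBI. In the drug groups it read -6.51, -6.72 and -6.23 in TBI+PMI-006, -5.77 and -5.90 in TBI+E2, and -4.69, -4.91 and -5.09 in TBI+JM6. On this scale the 3 drug groups did not overlap each other, but no TBI+PMI-006 array was well above background. Under quantile normalization TBI+PMI-006 read 3.41, 3.23 and 3.90 and overlapped TBI+E2 at 3.63 and 3.33. The probe was tested only because TBI+JM6 and TBI+E2, where it is high, read it above background, so its p-values are given as a description. In the main fit the rise over TBI was at least 2.10-fold in TBI+JM6 (adjusted p = 5.49e-07). In TBI+E2 it was at least 1.09-fold (adjusted p = 4.43e-06). Under quantile normalization the TBI+E2 rise was not called (adjusted p = 0.197). With normexp it was 0.23 on the log2 scale (adjusted p = 0.901). With the authors' matrix it was 0.0, which is smaller than the bound. TBI+PMI-006 and TBI were both below background, so that no fold is given.

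**Figure D4:**
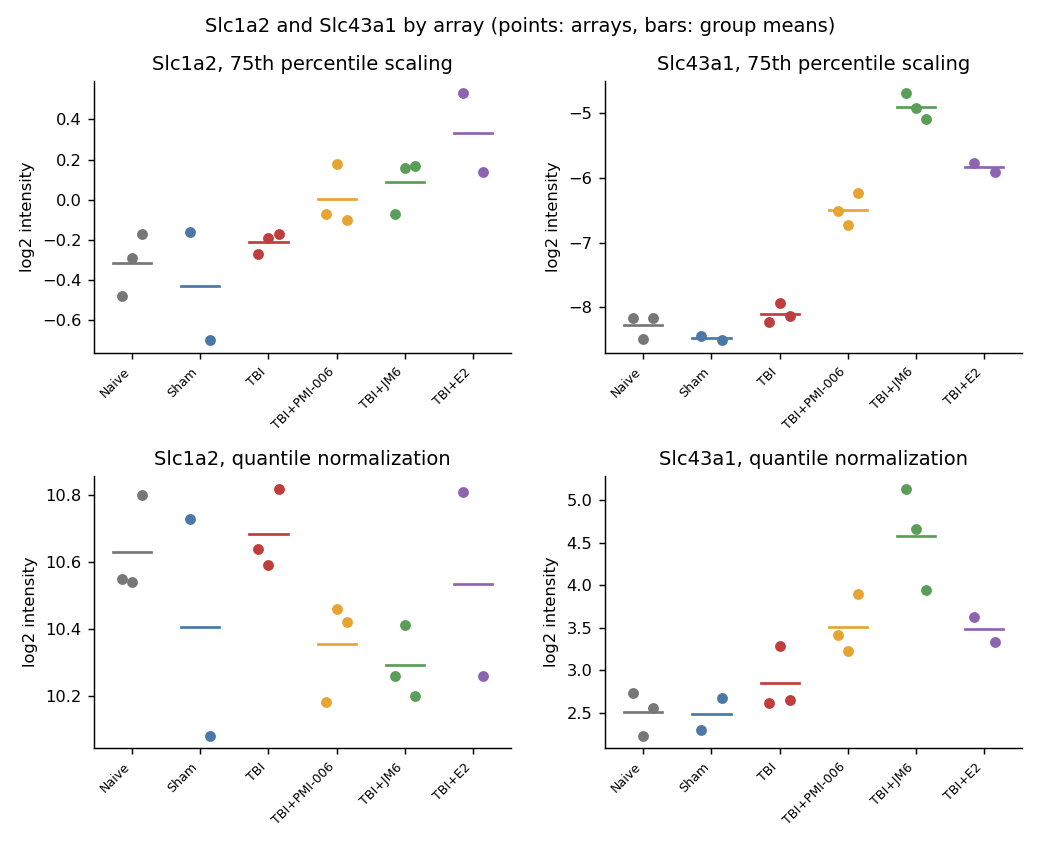
Log2 intensity of Slc1a2 and Slc43a1 by group under 75th percentile scaling and under quantile normalization. Points are arrays and bars are group means. On the 75th percentile scale Slc43a1 lies at -8.51 to -7.93 in Naive, Sham and TBI and at -5.09 to -4.69 in TBI+JM6.

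The genes most like these in profile were ranked by Pearson's r over the 16 arrays among 16699 genes, as a description. Those nearest Slc1a2 were Cabp4 (r = 0.938) and Ccdc151 (r = 0.936), and under quantile normalization the same pairs gave 0.566 and 0.842. Those nearest Slc43a1 were Olr205 (r = 0.972), Dntt (r = 0.966), Olr1425 (r = 0.963) and Paip2b (r = 0.960), against 0.856, 0.713, 0.667 and 0.67 under quantile normalization. The arrays share scan sessions, and 5.2% of the genes had an r over 0.9 with Slc43a1.

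The drugs were then compared with each other within scan session 2. In TBI+JM6 vs. TBI+PMI-006, 1 transporter was called, Slc43a1, which was 1.64% of members against a background of 0.0131%, or 3 probes of the whole array. It was higher in TBI+JM6 by 1.59 (SE 0.17, adjusted p = 0.00633). In the main fit this was a rise of at least 2.06-fold, given that no TBI+PMI-006 array was well above background. With the authors' matrix the difference was 0.86 (adjusted p = 0.479), which is smaller than that bound. Within slide 3, which held 1 TBI+JM6 array and all 3 of TBI+PMI-006, the difference was 1.79. Under quantile normalization it was 1.07 (adjusted p = 0.579), and without TBI+PMI-006 1, or with all 3 arrays high in choroid plexus markers left out, it was 1.57 (adjusted p = 0.0637 and 0.123).

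No transporter was called in TBI+JM6 vs. TBI+E2 (background 0.0175%) or TBI+PMI-006 vs. TBI+E2 (background 0.11%) by limma. At an unadjusted p under 0.05 there were 1 and 15 members, and the methods' t-test gave 1 and 13 at its unadjusted threshold and none after Benjamini-Hochberg adjustment. No share over all probes was taken at these unadjusted thresholds, so these counts do not set the members apart from the array. The median over all tested probes was -0.08 and -0.26 in these comparisons, beside -0.16 and -0.40 over the members. Slc43a1 differed by 0.94 in TBI+JM6 vs. TBI+E2 (SE 0.19, adjusted p = 0.392) and by 0.84 within slide 4. In TBI+PMI-006 vs. TBI+E2 it differed by -0.65 (adjusted p = 0.164), and by 0.03 with quantile normalization.

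Slc6a7 showed differences of 0.85 in TBI+JM6 vs. TBI+PMI-006 (SE 0.19, adjusted p = 0.252) and -1.06 in TBI+PMI-006 vs. TBI+E2 (SE 0.21, adjusted p = 0.0838). Its TBI+PMI-006 arrays were below all those of both other drug groups. Neither difference passed the threshold in the main fit. With slide as a random block that of TBI+PMI-006 vs. TBI+E2 did, at -1.13 (adjusted p = 0.0217). The median of all tested probes was 0.18 and -0.26 in these comparisons on the 75th percentile scale, and that of the members was 0.28 and -0.40.

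Enzymes of glutamate, glutamine and GABA metabolism, 10 genes that act on the transported amino acids, had 2 lower and none higher in TBI vs. Sham, beside 6.46% lower and 2.92% higher among all probes. These were Abat, which breaks down GABA (-0.79, adjusted p = 0.0432), and Got1, which interconverts glutamate and aspartate (-0.77, adjusted p = 0.0467). Neither passed under quantile normalization (adjusted p = 0.108 and 0.0814). In TBI vs. Naive none of the 10 was called, with a median of -0.42 beside 0.04 over all tested probes. Gad1, which makes GABA, was at -0.75 (adjusted p = 0.0793). Against TBI, 6 were higher in TBI+JM6, 4 in TBI+PMI-006 and 7 in TBI+E2, beside 69.9%, 56.7% and 70.2% of all probes. With quantile normalization TBI+JM6 had 2 higher and 2 lower, TBI+PMI-006 had 1 and 2, and TBI+E2 had 1 of each.

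Of 8 tested genes of the amino acid response, by which cells answer amino acid shortage, Mthfd2, a mitochondrial folate enzyme, rose in TBI vs. Sham by 1.06 (adjusted p = 0.0201) and in TBI vs. Naive by 1.16 (adjusted p = 0.0128). Atf5, a transcription factor, rose in TBI vs. Naive by 1.02 (adjusted p = 0.048), and its adjusted p was 0.0736 with quantile normalization. The remaining members were not called. Of all probes, 2.92% were higher in TBI vs. Sham and 2.98% in TBI vs. Naive. The median over the 8 was 0.43 and 0.81, beside -0.03 and 0.04 over all tested probes. Against TBI, 1 of the 8 was higher in TBI+JM6, none in TBI+PMI-006 and 1 in TBI+E2, beside the same 69.9%, 56.7% and 70.2% of all probes. Under quantile normalization none was higher and 1, 1 and 2 were lower. Of 5 tested genes of monoamine and acetylcholine synthesis and breakdown, none was called in TBI vs. Sham or TBI vs. Naive. Tph2, which makes serotonin, was higher in Sham vs. Naive by 1.16 (adjusted p = 0.0281), and at 0.84 (adjusted p = 0.15) with quantile normalization. Of all probes, 6.55% were higher in Sham vs. Naive.

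Slc6a13 (GAT-2), a GABA carrier of the meninges, and Slc6a20, a proline carrier of meninges and choroid plexus, were high on single arrays. Slc6a13 read -3.88, -0.63 and -4.00 in Naive and -4.13 and -2.13 in Sham, against -4.74, -4.10 and -4.25 in TBI. Slc6a20 read -3.21, 0.19 and -3.35 in Naive, -2.98 and -1.04 in Sham, -2.81, -2.69 and -2.57 in TBI, and 0.91, -1.45 and -1.39 in TBI+PMI-006. Naive 2, Sham 2 and TBI+PMI-006 1 were thus the highest arrays of their own groups for Slc6a20. TBI+JM6 2 at -0.72 and TBI+E2 2 at -0.73 were also above Sham 2. Summed meningeal fibroblast markers were 7.56 on Naive 2, 1.88 on Sham 2 and 4.19 on TBI+PMI-006 1. They were 1.76 on TBI+JM6 2, 1.55 on TBI+E2 2, 1.09 to 1.13 on the other Naive and Sham arrays and 0.69 to 0.729 in TBI. Sham 1, whose choroid plexus markers summed to 122, was not high for either gene. The part of these tissues in the values was not tested.

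**Figure D5:**
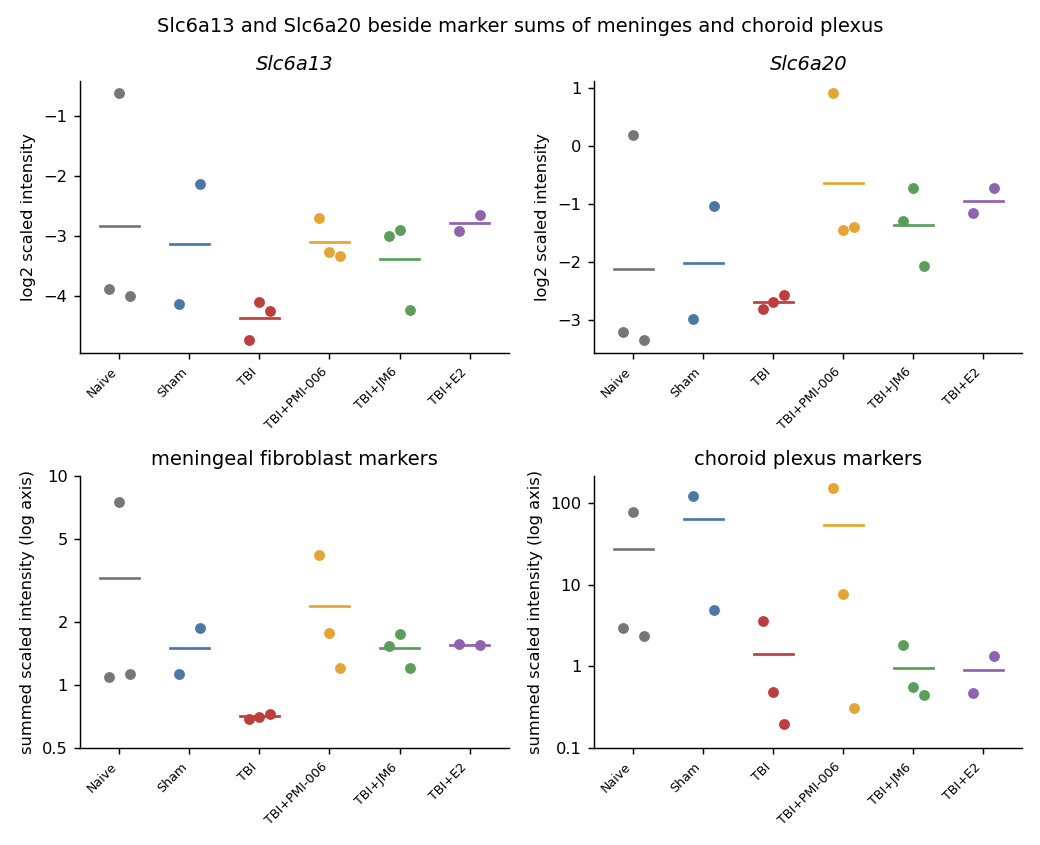
Log2 scaled intensity of Slc6a13 and Slc6a20 by group, above the summed scaled intensity of meningeal and choroid plexus markers on a log axis. Points are arrays and bars are group means. Naive array 2 is the highest Naive array in all 4 panels, and Sham array 1 is high for choroid plexus markers (122) alone.

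Of the members, 15 had 2 probes and 57 had 1, and the probes did not always read alike. Slc1a3 (GLAST), the other astrocytic glutamate carrier, read 3.47, 3.49 and 3.58 in TBI and 3.21 to 3.86 in the drug groups by its brighter probe. By that probe its differences from TBI were -0.23 in TBI+PMI-006, 0.07 in TBI+JM6 and 0.14 in TBI+E2, none called. Its dimmer probe gave 1.41, 1.62 and 1.55, all called. Slc43a2, a large neutral amino acid carrier, differed by -0.03 in TBI vs. Sham by the brighter probe and by -1.15, called, by the other. In Sham vs. Naive the same probes gave -0.39 and 1.44, the latter called. Slc6a18 by its brighter probe read -5.61, -5.71 and -5.60 in TBI and -5.00 and -4.23 in TBI+E2. By its other probe it read -8.21, -8.09 and -7.81 in TBI and -4.04 and -3.58 in TBI+E2.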

How the data were processed

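Total RNA of whole hippocampus was hybridised to one-colour Agilent rat arrays. Per the file headers, the deposited intensity of each spot is the scanner software's background-subtracted, spatially detrended signal on a linear scale, not scaled between arrays, with flags of 0 or 1 (another kind of value) for spots above background. The deposited matrix holds the authors' ratio of each signal to the 75th percentile of its array (r = 0.981 to 0.999 with the scanner values) and was used as an alternative. Probe positions are those of rn4 in the files, and exon annotation on that build was not used here. Samples were grouped by their titles. The methods give 3 rats per group, and 2 Sham and 2 TBI+E2 arrays were analysed here. Whether replicates were amplified separately is not given in the sources used here, and the number of arrays limits the precision.

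Spots flagged as outliers and control spots were left out, and spots of a probe were averaged. Intensities were divided by each array's 75th percentile over probes well above background and taken to log2 with no pseudocount. The 22821 probes that all arrays of 1 or more groups read well above background were tested in limma 3.58.1 (R 4.3.3), with 6 group means over 16 arrays (10 residual degrees of freedom), and p-values were Benjamini-Hochberg adjusted over all probes of a comparison. The test was tested on simulated data. Figures were drawn with matplotlib 3.10.9. Alternatives were quantile normalization, the percentile over all probes, normexp (offset 50), removal of a lowess trend on probe GC, other filters, the authors' matrix, slide as a block, a replicate block, the compared groups alone, leaving out arrays, and the t-test that the methods name (p under 0.05 without adjustment, fold over 1.2).

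The members and gene lists were chosen with earlier results of these data known. Every array's values are given for Slc1a2 and Slc43a1 and for some called members whose arrays did not overlap, at most 6 rising and 6 falling in a comparison. Slc7a9, Slc6a5, Slc6a3 and Slc18a2 are given without the values of each array. Further members with large called rises against TBI are counted but not described. Slc1a3, Slc1a5, Slc43a3, Slc3a2, Slc6a13, Slc6a20 and the genes with discordant probes were also described, chosen after their values were seen. Of the 72 names, 71 match a current RefSeq symbol. The values of 1 member are not reported here.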

Additional observations from a re-analysis of the deposited data

Results flagged for a closer look

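Slc43a1 was the 1 transporter called between drug groups by a test of the difference itself, on a probe tested only because TBI+JM6 and TBI+E2, where it is high, read it above background. Between TBI+JM6 and TBI+PMI-006 it differed by 1.59 on the log2 scale (adjusted p = 0.00633), with all 3 TBI+JM6 arrays above all 3 TBI+PMI-006 arrays. No TBI+PMI-006 array was well above background, so that the main fit gives the size only as at least 2.06-fold. With the authors' matrix the difference was 0.86 (adjusted p = 0.479), which is smaller than that bound. Over 19 alternatives the difference was 0.86 to 1.79 with adjusted p of 0.000964 to 0.579.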

How the results depend on the processing

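The number of arrays limits most calls, and scan session cannot be told apart from drug treatment. Dim probes set several of the largest values. The cause of each change below was not tested.

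Counts of called transporters are given as higher plus lower where both occur. Shares over all probes were taken only for quantile normalization of the drug groups against TBI. The other counts therefore describe the members alone and do not set them apart from the array. In TBI vs. Sham (6 calls), normexp, slide as a fixed block and the compared groups alone each gave 0, a random slide block 11 (3 and 8), and leaving out the 3 arrays high in choroid plexus markers 1. In TBI vs. Naive (3 calls), normexp and the groups alone gave 0. Quantile normalization, the filter on all arrays, the authors' matrix and the replicate block gave 5, the percentile over all probes, GC removal and a random slide block 6, and the methods' t-test 12. In Sham vs. Naive (4 calls), normexp and the groups alone gave 0, a fixed slide block 2, the percentile over all probes and the matrix 7, GC removal 8 and the t-test 14. Against TBI, TBI+JM6 (39) gave 15 with quantile normalization and with the matrix, 14 with normexp, 23 with GC removal and 22 with the filter on all arrays. TBI+PMI-006 (30) gave 10, 11, 2 and 17 with quantile normalization, the matrix, normexp and the filter on all arrays, and 16 with the percentile over all probes. TBI+E2 (42) gave 13, 12, 7 and 24 in the same order, 22 with the percentile over all probes and 25 with GC removal. In TBI+JM6 vs. TBI+PMI-006 (1), quantile normalization, the percentile over all probes, normexp, GC removal, the filter on all arrays, the matrix, the groups alone and the 3 arrays left out gave 0, and the t-test 6. The t-test gave 1 in TBI+JM6 vs. TBI+E2 and 13 in TBI+PMI-006 vs. TBI+E2, where a random slide block gave 5.

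Leaving out 1 array gave 1 to 10 calls in TBI vs. Sham, 2 to 8 in TBI vs. Naive, 1 to 4 in Sham vs. Naive, 29 to 38 in TBI+JM6 vs. TBI, 21 to 27 in TBI+PMI-006 vs. TBI, 26 (without TBI+E2 2) to 41 in TBI+E2 vs. TBI, 0 to 1 in TBI+JM6 vs. TBI+PMI-006, and 0 to 0 in the remaining 2 comparisons.

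Some directions turned. In TBI+PMI-006 vs. TBI, normexp gave -0.11 for Slc6a3, 0.00 for Slc17a8 and -0.17 for Slc43a1, the matrix gave -0.06 for Slc17a8, and GC removal gave -0.03 for Slc7a5. In TBI+E2 vs. TBI, Slc1a2 was -0.15 with quantile normalization, -0.29 with the percentile over all probes, -0.67 with GC removal and -0.13 with the matrix. In TBI+PMI-006 vs. TBI+E2, Slc43a1 was 0.03 with quantile normalization and 0.19 with the matrix.

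Samples share only a replicate number: over 22 pairs the correlation of deviations was -0.185 to 0.183, and 11 of 22 correlated best with their own number. With the replicate block there were 5 calls in TBI vs. Sham, 5 in TBI vs. Naive, 5 in Sham vs. Naive, 41 in TBI+JM6, 31 in TBI+PMI-006 and 41 in TBI+E2 vs. TBI, and 1, 0 and 0 among the drugs.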
